A study of Mus musculus with 13 samples.

Results

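Late-numbered mouse miRNAs, those whose hairpin carries a miRBase number of 5000 or more, were examined in small RNA libraries of the hippocampus and the prefrontal cortex (PFC). The rule took every hairpin named mmu-mir-N with N of at least 5000, whatever its suffix, and both arms, and it used no measured value. It found 455 mature miRNAs from 306 hairpins, out of 1384 mature miRNAs listed in the series. The 13 libraries came from 3 FVB/N and 3 TgR hippocampi and from 3 FVB/N and 4 TgR PFCs. TgR mice are a transgenic line on the FVB/N background that overexpresses human AChE-R, the stress-induced readthrough splice form of acetylcholinesterase, and FVB/N is the parent strain without the transgene. A cytomegalovirus promoter-enhancer drives the transgene constitutively, and the TgR mice used for sequencing were not separated by their stereotypic behavior. The labels give neither the age of these mice nor whether any animal gave both a hippocampal and a PFC library.

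A miRNA is cut from a hairpin precursor, and either strand of the hairpin stem can give a mature miRNA, named 5p or 3p after the arm it comes from. Bases 2 to 8 of the mature miRNA, the seed, pair with target messengers. miRBase numbers hairpins in the order in which they were submitted, so late numbers were mostly assigned when deep sequencing could pick up rare small RNAs. Many of the late mouse entries are mirtrons, hairpins that are themselves short introns or lie at the end of one, and that splicing rather than the enzyme Drosha frees at one or both ends. Some catalogue entries have been questioned because their sequence overlaps another small RNA.

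The sequences below are those of members described in detail: abundant members, those past the threshold between regions, and miR-7055-3p from a glutamate transporter gene. They were taken from RefSeq (GRCm38.p6), which held the mature sequence of 402 of the 455 members, and capitals mark the seed. miR-6540-5p and miR-5099 are named only. miR-455-5p, which has a lower number, is shown because it carries the same seed as miR-5129-3p, and miR-6992-3p because it carries that of miR-7015-3p.
miR-7689-3p: uUAGAGCCagacugccuggguuu
miR-5129-3p: aAUGUGCCugugcaucucuucc
miR-455-5p: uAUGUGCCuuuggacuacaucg
miR-6944-3p: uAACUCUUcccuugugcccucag
miR-6516-5p: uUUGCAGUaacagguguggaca
miR-7080-3p: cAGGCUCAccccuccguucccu
miR-7080-5p: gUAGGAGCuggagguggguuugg
miR-7015-3p: uCUCACUGuccucugcacuag
miR-6992-3p: uCUCACUGaugaucauuugcag
miR-6899-3p: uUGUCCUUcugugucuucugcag
miR-6911-3p: uCAAUCACacucuguccacag
miR-7055-3p: uUGCUACUuugauaccccaccag
miR-7240-5p: uUGGAGAGgaccgccgucgga
miR-8103: uCUCCUGUucucuguucuccc
miR-5113: aCAGAGGAggagagagauccugu

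Seeds were rarely shared. The 402 sequences held 382 different seeds, 26 of the members (6.5%) had the seed of a lower-numbered miRNA in the series, and 37 (9.2%) had that of another member. Among the 763 lower-numbered miRNAs with a sequence, 207 (27.1%) shared a seed with another lower-numbered miRNA. The median length was 22 bases in both sets. Members were richer in G and C, with a median of 56.5% against 47.8%, and more of them began with U (51.2% against 37.2%).

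To show the mirtron structure, 3 whole hairpins are given next from RefSeq, in the direction of transcription, with the 5p and 3p mature arms in capitals. Mir6944 (chr13:55477681-55477776, minus strand) is the whole 96-base intron of Dbn1, the gene of the actin-binding spine protein drebrin. Mir7080 (chr8:123130106-123130172, plus strand) is a whole 67-base intron of Cpne7, a calcium-dependent phospholipid-binding copine. Mir7055 (chr7:45173303-45173361, plus strand) ends exactly at the 3′ end of a 359-base intron of Slc17a7, the vesicular glutamate transporter VGLUT1.
Mir6944: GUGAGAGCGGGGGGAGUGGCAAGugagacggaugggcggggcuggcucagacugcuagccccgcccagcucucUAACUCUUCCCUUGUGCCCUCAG
Mir7080: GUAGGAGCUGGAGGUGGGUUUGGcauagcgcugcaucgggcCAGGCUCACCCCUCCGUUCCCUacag
Mir7055: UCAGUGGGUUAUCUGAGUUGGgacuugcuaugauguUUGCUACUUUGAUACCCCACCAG
All 3 end in AG, the bases that close an intron. The 3p arms of Mir6944 and Mir7055 run to that end, whereas that of Mir7080 stops before it.

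Most late-numbered hairpins sat at a splice site. GENCODE M21, an annotation of GRCm38, and RefSeq placed 297 of the 306 hairpins, and a hairpin end within 10 bases of an intron end was counted as lying at it. Of these, 14 (4.7%) spanned a whole intron and 179 (60.3%) had 1 end at an intron end, which was the 3′ end for 173 (58.2%) and the exact last base for 156. A further 56 (18.9%) lay inside an intron, 27 (9.1%) overlapped an exon, 9 (3.0%) were only antisense to a gene and 12 (4.0%) lay between genes. Of 520 lower-numbered hairpins, 9 (1.7%) spanned an intron, 15 (2.9%) had 1 end at an intron end and 270 (51.9%) lay inside an intron. Of 3p members from hairpins at an intron 3′ end, 109 of 143 (76.2%) finished in AG, compared with 8 of 50 (16.0%) other 3p members and 34 of 367 (9.3%) lower-numbered 3p miRNAs.

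**Figure D1:**
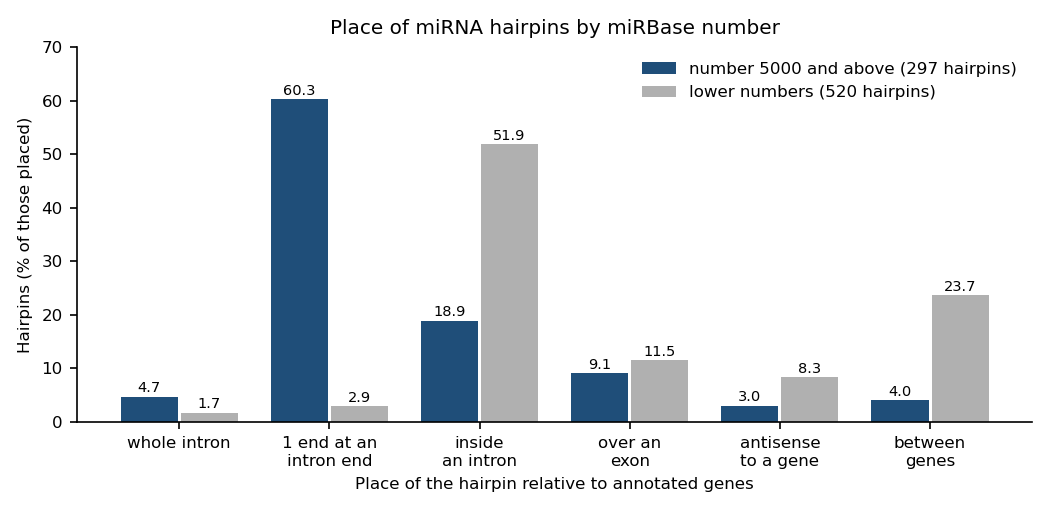
Bars give the percentage of placed hairpins (y axis) in each position relative to annotated genes (x axis), for 297 hairpins numbered 5000 and above (blue) and 520 lower-numbered hairpins (grey). Hairpins with 1 end at an intron end make up 60.3% of the first set and 2.9% of the second.

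The arm that gave more reads differed between hairpins. Of the members, 224 were 3p, 190 were 5p and 41 had no arm in their name, and they took 61.4%, 32.9% and 5.7% of the member counts. Without miR-7689-3p the 3p and 5p arms held similar sums, 13787 and 13286 counts. By number, the 6000 series held 164 members and 41.0% of the counts and the 7000 series 225 members and 42.1%, with 45 members in the 5000 series and 21 above. Among hairpins with at least 10 counts over both arms, the 3p arm had more counts at all 8 that spanned an intron and at 75 of 116 (64.7%) with 1 end at an intron end. Lower-numbered hairpins led in 3p at 6 of 9 (66.7%) that spanned an intron and at 9 of 13 (69.2%) with 1 end at an intron end. Where the hairpin spanned an intron, 3p held 17.6% of the counts of lower-numbered hairpins and 93.6% of those of members. Inside introns the 3p arm led at 15 of 27 member hairpins (55.6%). It held only 10.9% of their counts, as miR-6540-5p alone gave 8618 of the 10113 5p counts. Between genes the 3p arm led at 1 of 3 and held 7.4%, with 382 of the 464 5p counts from miR-5615-5p. Over all positions the 3p arm led at 103 of 162 member hairpins (63.6%) and at 203 of 419 lower-numbered hairpins (48.4%). Mir6944 gave 1069 counts from its 3p arm and 1 from its 5p arm over the 13 libraries, and Mir7080 gave 458 and 118. Mir6540, inside an intron of Gap43, which encodes a growth-cone protein, went the other way, with 8618 counts on 5p and 336 on 3p.

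Late-numbered miRNAs were rare in every library. They took 0.0305% to 0.0432% of the counts of a library, when each mature miRNA was counted at a single hairpin, although they made up 455 of the 1384 names. Each count is a read assigned to a whole mature miRNA, so levels were not scaled by length. They are given in CPM (the count as a rate of the library total, scaled by the TMM factors of edgeR). Whether different sequences were captured equally well was not tested, so levels of different members or arms compare reads only. A member had a median of 8 counts over all 13 libraries together, compared with 32 for hairpins numbered from 3000 and under 5000, 59 for those from 1000 and under 3000, and 1178.5 for let-7 and numbers under 1000. Among the members, 80 were found in all libraries, 80 in only 1, and 74 had a single count in the whole series. The first members above the limit were miR-5099, miR-5100 and miR-5101, with 733, 30 and 14 counts, and the last miRNAs below it, miR-3963, miR-3968 and miR-3970, had 302, 11 and 14.

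Library totals ranged from 5350259 to 11111883 counts with 1 row per mature miRNA, so that 3 counts, the floor used here for a signal above 0, stood for 0.270 to 0.561 CPM (counting error only). Between 177 and 256 members were listed per library, and 21 to 46 of them had at least 10 counts, the lowest of both in the shallowest library, TgR PFC replicate 2. Summed levels of marker miRNAs differed between groups, but single markers did not all follow. Markers of neurons (miR-124-3p, miR-9-5p and miR-128-3p) summed to 256494 to 308549 CPM in the hippocampus and 315692 to 405439 in the PFC. This rested on miR-128-3p, with means of 175447 and 161813 CPM in FVB/N and TgR hippocampus and 260830 and 254520 in the PFC. In the same order, miR-9-5p was at 107329 and 106740 compared with 106058 and 111342. Means of miR-124-3p were 7183 and 9388 compared with 7821 and 7502. Both oligodendrocyte markers, miR-219a-2-3p and miR-338-3p, summed to 1422 to 3509 CPM in the hippocampus and 587.4 to 929.4 in the PFC. The 4 choroid plexus miRNAs, led by miR-204-5p, reached 1986 to 8534 CPM in TgR hippocampi and 1359 to 2008 in FVB/N hippocampi, and the 3 red blood cell miRNAs 787.5 to 1062 and 1708 to 1803. The 3 muscle miRNAs summed to 620.2 to 734.8 CPM in TgR hippocampi and 300.2 to 457.6 in FVB/N hippocampi. In the PFC they summed to 393.6 to 2013 CPM in TgR and 341.4 to 649.1 in FVB/N. The hippocampal sums rested on miR-1a-3p, with means of 631.5 CPM in TgR and 360 in FVB/N, and miR-133a-3p followed (38.7 and 19.3). The third, miR-206-3p, was at 3.614, 3.796 and 15.28 CPM in TgR hippocampi and 4.972, 5.045 and 4.17 in FVB/N hippocampi. The part of these cell types in the differences below was not tested, and in bulk tissue fewer cells of a type and less RNA per cell cannot be told apart.

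The summed level of the 455 members was 351.4 ± 54.15 CPM (SD, n = 3) in FVB/N hippocampus and 345 ± 51.77 (n = 3) in TgR hippocampus. In the PFC it was 334.7 ± 48.98 (n = 3) for FVB/N and 339.1 ± 28.68 (n = 4) for TgR. The group means differed by less than the SD within any group. In the hippocampus this rested on miR-7689-3p, without which the mean was 274.1 CPM in FVB/N (228.6 to 305.4) and 224.3 in TgR (213.9 to 233.9), ranges that still overlapped. Members with at least 10 counts numbered 36 ± 2.646, 41.33 ± 5.508, 35.67 ± 4.726 and 35.5 ± 10.47 in the same order.

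**Figure D2:**
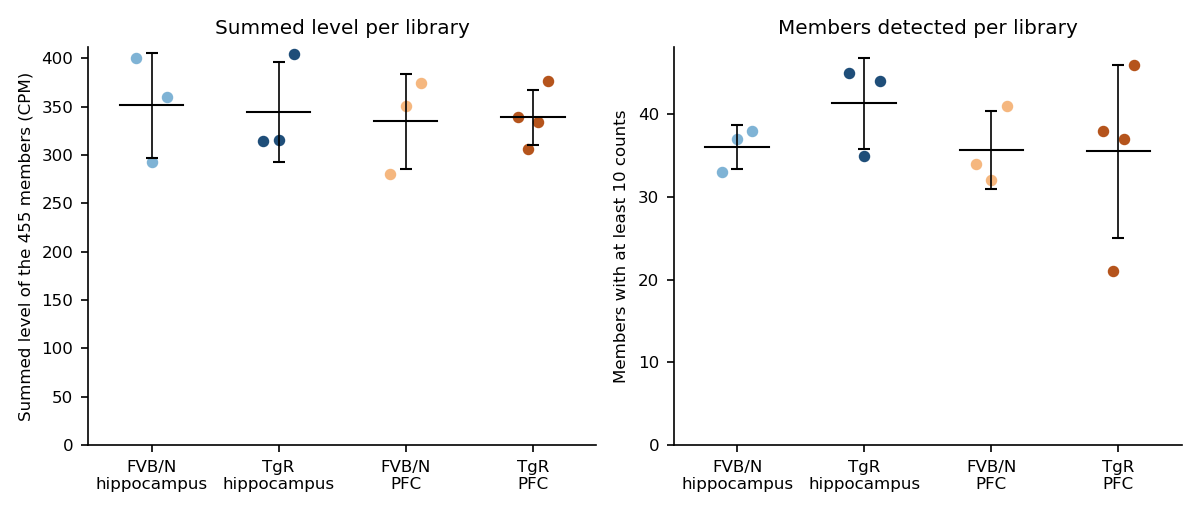
Points are libraries, lines are group means and bars are SD, for the summed level of the 455 members in CPM (left) and the number of members with at least 10 counts (right). The 4 groups overlap in both, and the lowest number detected, 21, belongs to TgR PFC replicate 2.

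Most of this sum came from miR-7689-3p, miR-6540-5p and miR-5129-3p, which took 57.6% of the member counts and were the 3 members with a mean of at least 10 CPM. Of the 15 most abundant members, 9 came from a hairpin at an intron 3′ end and 11 were 3p.

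miR-7689-3p was the most abundant. Its hairpin (chr5:36301570-36301628, plus strand) lies antisense to Sorcs2, a receptor of the sortilin family. In FVB/N hippocampi it reached 112.2, 64.78 and 54.84 CPM, and in TgR hippocampi 89.53, 101.6 and 170.9 CPM. TgR hippocampus replicate 3 was thus the highest of all libraries, with 1934 counts, but the genotypes overlapped. PFC levels ranged from 74.52 to 96.53 CPM in FVB/N and from 77.74 to 97.36 in TgR, so the spread was far smaller there. In TgR hippocampus replicate 3 the oligodendrocyte marker miR-219a-2-3p also stood highest, at 2619 CPM compared with 1343 and 1518 in the other TgR hippocampi. In FVB/N hippocampi the marker was highest in replicate 2 (1703 CPM, compared with 1423 in replicate 1), whereas miR-7689-3p was highest in replicate 1. The marker had means of 469.2 CPM in FVB/N PFC and 373.2 in TgR PFC. Its part in the level of miR-7689-3p was not tested.

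miR-6540-5p, from an intron of Gap43 (chr16:42303362-42303469, minus strand), had similar levels. It was at 57.62, 56.41 and 90.47 CPM in FVB/N hippocampi and at 44.9, 56.51 and 54.51 in TgR hippocampi. In the PFC it spread from 42.05 to 121.2 CPM in FVB/N and from 65.57 to 114.7 in TgR. Within groups, the chi-square of its counts per degree of freedom was 65.90, far above counting error. This measure grows with the level at the same relative spread, so it does not rank members by how much they vary. The 3p arm, miR-6540-3p, was at 1.445 to 4.359 CPM over the 13 libraries.

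miR-5129-3p, which shares the seed of miR-455-5p, came from a hairpin 5 bases from the 3′ end of a 532-base intron of Zeb2, a transcriptional repressor (chr2:45023100-45023177, minus strand). FVB/N hippocampi held 56.22, 37.74 and 39.93 CPM and TgR hippocampi 38.85, 26.9 and 28.27. The 7 PFC libraries lay lower, between 18.55 and 31.83 CPM, and only the lower TgR hippocampal values fell into their range. The miRNA with the same seed, miR-455-5p, had 11402 counts in the series compared with 3657 for miR-5129-3p.

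Below these came members at a few CPM. miR-6944-3p, from the Dbn1 mirtron, lay between 7.234 and 14.53 CPM. miR-6516-5p, at 5.449 to 11.09 CPM, matches a small Cajal body RNA gene (Gm26083) inside the noncoding host Snhg20 base for base, so its reads and those of fragments of that RNA cannot be told apart. Of 51 members searched against annotated transcripts, 11 matched a transcript of a gene other than a miRNA gene. Transcripts of host genes, which can be the precursor itself, were included. Of the 11, 3 matched a small nucleolar or Cajal body RNA, namely both arms of Mir6516 and miR-5121, which lies in Snord33 and was singled out after its match was seen. The remaining members of the leading 15 had means from 6.224 CPM, for miR-5099, down to 2.5 CPM, for miR-6911-3p. Several of them came from the 3′ end of an intron. miR-6899-3p, from the transcription factor gene Klf7, was at 3.674 ± 1.587 CPM (SD, n = 3) in FVB/N hippocampus, 2.754 ± 0.4243 (n = 3) in TgR hippocampus, 2.815 ± 0.4904 (n = 3) in FVB/N PFC and 3.176 ± 0.5883 (n = 4) in TgR PFC. miR-6994-3p, from Patl1, a factor of messenger decay, had means of 3.511, 3.199, 2.968 and 3.111 CPM in the same order, and miR-6911-3p, from Dazap1, an RNA-binding protein, 3.034, 2.689, 2.229 and 2.162 CPM. For these mirtron-like members the group means lay within the spread of single libraries.

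**Figure D3:**
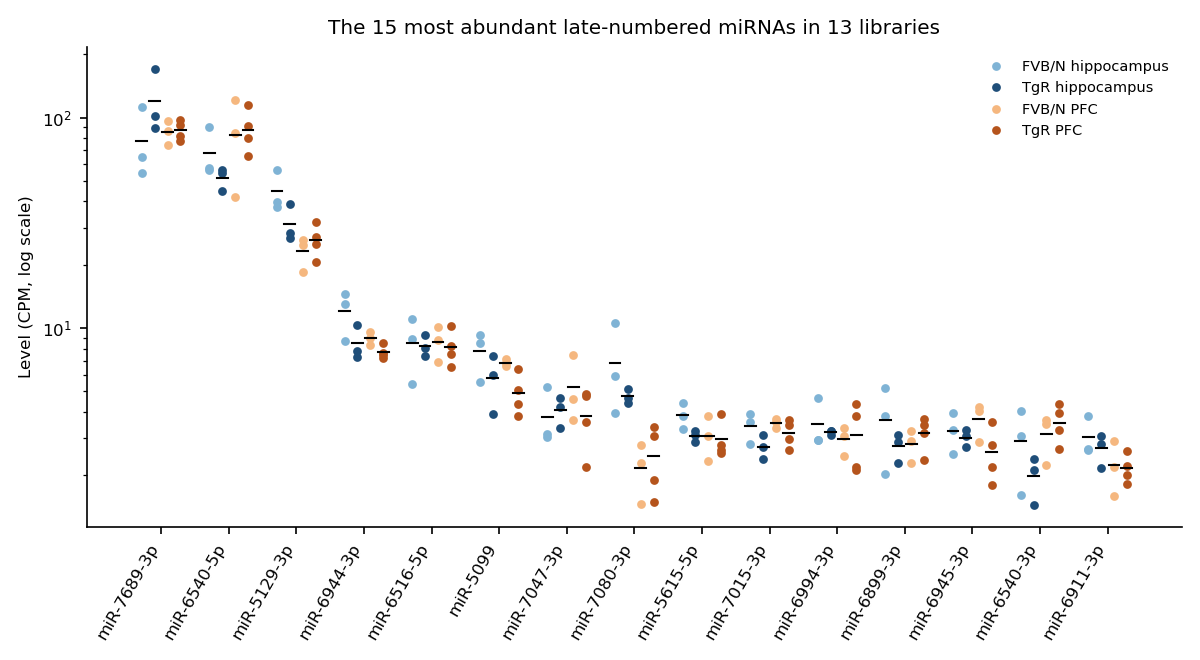
Levels in CPM (log scale) of the 15 most abundant members, with 1 point per library colored by group and black lines at group means. miR-7689-3p, miR-6540-5p and miR-5129-3p lie above all others, and miR-7080-3p shows both hippocampal groups above both PFC groups.

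The spread within groups, set against counting error, differed between members. For the 46 members that passed the filter on low counts in the fit of all libraries, the median chi-square per degree of freedom within groups was 1.83, where counting error alone gives about 1. It was under 2 for 25 members (54.3%) and 2 or more for 21, up to 65.90 for miR-6540-5p. Abundant members reach higher values at the same relative spread. The other 409 members were never tested, had at most 92 counts over the 13 libraries and held 13.9% of the member counts.

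Regions were compared first, over both genotypes. Higher in the hippocampus were 5 members (miR-7240-5p, both arms of Mir7080, miR-8103 and miR-5129-3p), and 1 was lower, miR-5113. This is 6 of the 46 tested members (13%) past an adjusted p of 0.05 in edgeR's quasi-likelihood test. Over all 647 miRNAs tested, 19.2% passed, 11.4% higher and 7.73% lower in the hippocampus in the same fit. Of 381 lower-numbered miRNAs within the range of member levels, 13.4% passed, close to the share of members. The median level of these 381 was still higher, at 7.827 CPM compared with 1.706 for the members. Of the 6 members, 4 also passed the filter on low counts in the PFC alone, whereas miR-7240-5p and miR-7080-5p passed it only through the hippocampus, where they are high. Groups did not overlap for 4 members, where the share over all miRNAs was 7.42%. The median log2 difference of the tested members was 0.08, and that of all tested miRNAs was 0.02 in the same fit.

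miR-7240-5p differed most. Its hairpin (chr8:70798135-70798192, plus strand) lies antisense to the kinase gene Mast3. The hippocampal libraries held 25, 19 and 16 counts in FVB/N and 17, 12 and 17 in TgR. PFC libraries held 6, 0 and 1 counts in FVB/N and 3, 2, 4 and 4 in TgR. Every hippocampal library thus had more counts than every PFC library, at a mean of 1.911 CPM compared with 0.304. The log2 difference was 2.50 (SE 0.36, edgeR adjusted p = 3.90e-04), and its values were 3.08 in FVB/N alone (adjusted p = 0.0221) and 1.89 in TgR alone (adjusted p = 0.00584). It lay under the filter in the PFC and entered the fit only through its hippocampal counts, so a difference in this direction was built into its selection. With 3 of the 7 PFC libraries below the floor of 3 counts the size is loosely set, and it was 3.41 without FVB/N PFC replicate 1 and 2.26 to 2.55 when any other single library was left out. Its 3p arm had 14 counts in the whole series and was not tested.

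Both arms of the Cpne7 mirtron Mir7080 were higher in the hippocampus. miR-7080-3p was at 10.58, 3.935 and 5.939 CPM in FVB/N hippocampi and at 4.427, 4.664 and 5.124 in TgR hippocampi. In the PFC it was at 2.281, 2.775 and 1.455 CPM in FVB/N and at 1.896, 3.088, 1.484 and 3.376 in TgR. No PFC value reached the lowest hippocampal one, and the log2 difference was 1.30 (SE 0.26, edgeR adjusted p = 0.00339). miR-7080-5p, the less abundant arm, had hippocampal levels of 0.8073 to 2.55 CPM and PFC levels of 0.1816 to 0.7716 CPM, which again did not overlap (log2 difference 1.69, SE 0.35, adjusted p = 0.00381). The 5p arm, with 1 to 8 counts per PFC library, also passed the filter only through the hippocampus, unlike the 3p arm. Within single genotypes the 3p arm fell just short of the threshold in edgeR, at 1.64 (adjusted p = 0.0504) in FVB/N and 0.94 (adjusted p = 0.0603) in TgR, with 6 and 7 libraries.

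miR-8103, from inside a 5000-base intron of Osbpl7, an oxysterol-binding protein relative, was at 1.735 to 3.357 CPM in the hippocampus and at 0.4241 to 1.685 CPM in the PFC. The ranges were separate by a small margin (log2 difference 1.19, SE 0.31, edgeR adjusted p = 0.014). It did not pass within single genotypes, at 1.07 (adjusted p = 0.216) in FVB/N and 1.28 (adjusted p = 0.081) in TgR, nor without TgR hippocampus replicate 3, its highest library (1.02, adjusted p = 0.0517).

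miR-5129-3p was 1.51-fold higher in the hippocampus (log2 0.60, SE 0.16, edgeR adjusted p = 0.0147), though with overlap. The difference lay at 0.94 (adjusted p = 0.0787) in FVB/N alone and at 0.23 (adjusted p = 0.52) in TgR alone. The call was lost without FVB/N hippocampus replicate 1 (adjusted p = 0.0597) or without TgR hippocampus replicate 1 (0.0521).

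miR-5113 was the only tested member called lower in the hippocampus. Its hairpin overlaps an exon of Tnrc6b, whose protein binds Argonaute in miRNA silencing, and its mature sequence is contained in that messenger. It was at 1.912, 1.816 and 2.401 CPM in FVB/N hippocampi and 1.626, 2.061 and 2.12 in TgR hippocampi. PFC levels were 3.074, 3.067 and 3.245 CPM in FVB/N and 3.265, 2.543, 2.227 and 2.701 in TgR. Only TgR PFC replicate 3 fell below the highest hippocampal library. The log2 difference was -0.55 (SE 0.16, edgeR adjusted p = 0.0314), and 12 of 21 alternative settings brought the adjusted p above 0.05, among them DESeq2 (0.0632). The others included the omission of 1 of 7 libraries, which were FVB/N PFC replicate 3, TgR PFC replicates 1 and 4, and replicates 1 and 2 of both hippocampal groups (0.0504 to 0.0966).

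**Figure D4:**
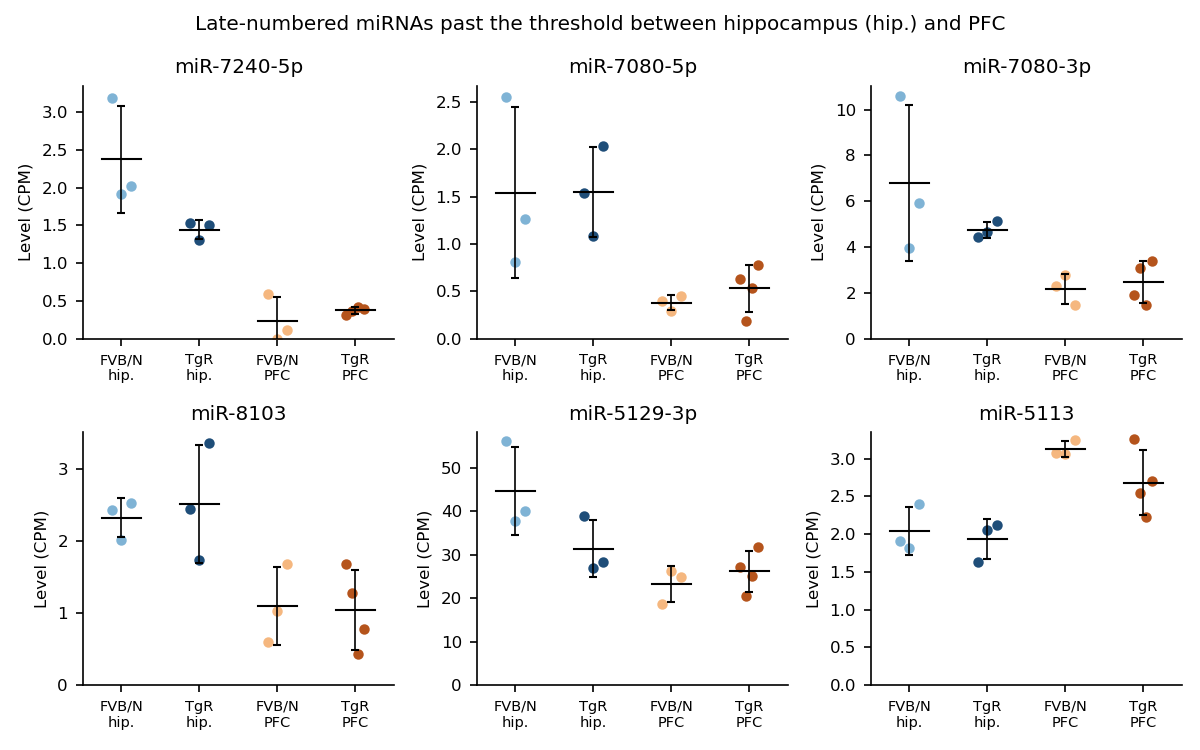
Levels in CPM per library for the 6 members past the threshold between regions, with points for libraries, lines for group means and bars for SD. Hippocampal and PFC points do not overlap for miR-7240-5p, miR-7080-5p, miR-7080-3p and miR-8103.

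miR-6540-5p and its 3p arm were lower on average in the hippocampus, but neither passed over all libraries. The log2 differences were -0.52 (SE 0.22, edgeR adjusted p = 0.128) and -0.48 (SE 0.24, adjusted p = 0.189). For miR-6540-5p the difference passed in TgR alone (-0.78, adjusted p = 0.0442), and over both genotypes without FVB/N PFC replicate 1, its lowest PFC library (-0.69, adjusted p = 0.0198). The most abundant member, miR-7689-3p, had a log2 difference of 0.16 (SE 0.19, adjusted p = 0.625).

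By the position of the hairpin, the tested members from whole introns were 4, of which 2 were called between regions, both from Mir7080. Of the 25 from hairpins with 1 end at an intron end, the largest position class, 1 was called, miR-5129-3p, and their log2 differences ran from -0.58 to 0.60, with 13 below 0. Of 9 from inside introns 1 was called (miR-8103), as was 1 of 2 over an exon (miR-5113), 1 of 2 antisense to a gene (miR-7240-5p) and 0 of 4 between genes. For comparison, 13% of all 46 tested members and 19.2% of all 647 tested miRNAs were called. As miR-7080-5p and miR-7240-5p passed the filter only through the hippocampus, and most classes are this small, the counts cannot show an effect of position. Other intron-end members of the leading 15 did not pass, among them miR-7015-3p at -0.13 (SE 0.15, edgeR adjusted p = 0.616), miR-6944-3p at 0.28 (SE 0.15, adjusted p = 0.216) and miR-6911-3p at 0.37 (SE 0.19, adjusted p = 0.214).

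The genotype comparison asked what AChE-R overexpression does to these miRNAs, and in the hippocampus no member passed. Of 40 tested members, 0 were past an adjusted p of 0.05 in edgeR, while 4.85% of all 619 tested miRNAs passed (2.42% higher and 2.42% lower in TgR), and DESeq2 also called 0 members but gave no adjusted p for 6 of them. At an unadjusted p under 0.05 there were 2 members, compared with 17.4% of all miRNAs. Of 360 lower-numbered miRNAs within the range of member levels, 4.44% passed the adjusted threshold. The median SE was 0.328 for the members and 0.237 for these, so the members were measured less precisely. The smallest adjusted p was 0.235, for miR-5129-3p, 1.44-fold lower in TgR (log2 -0.53, SE 0.22). miR-7689-3p was 1.55-fold higher on average (0.63, SE 0.31, adjusted p = 0.312), and leaving out single hippocampi moved this between 0.30 and 0.98. miR-6944-3p was at -0.52 (SE 0.25, adjusted p = 0.309), miR-7080-3p at -0.53 (SE 0.33, adjusted p = 0.408), miR-5099 at -0.44 (SE 0.28, adjusted p = 0.418) and miR-6540-5p at -0.42 (adjusted p = 0.364).

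Hippocampal groups did not overlap for 3 members, miR-7240-5p, miR-5615-5p and miR-8120, each lower in TgR, and for 22.3% of all tested miRNAs. miR-7240-5p was at 3.187, 1.917 and 2.022 CPM in FVB/N and at 1.536, 1.301 and 1.502 in TgR (log2 -0.71, SE 0.30, edgeR adjusted p = 0.24). miR-5615-5p, encoded between genes, was at 3.314, 3.834 and 4.422 CPM compared with 2.891, 3.254 and 3.092 (-0.35, adjusted p = 0.423). miR-8120, named here after its values were seen, was at 2.167, 1.615 and 1.516 CPM compared with 0.9034, 0.8677 and 1.414 (-0.73, adjusted p = 0.291).

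Over the 40 members tested in the hippocampus, 31 had a log2 fold change below 0 and the median was -0.31, where the median of all tested miRNAs was -0.00 and that of lower-numbered miRNAs in the same range of levels 0.06. Scaling by library size alone, which moved the median of all miRNAs to 0.10, left 25 of 40 below 0 and a median of -0.21. Without FVB/N hippocampus replicate 3 the median was -0.10. Since members pass the filter on their counts in these libraries, the count and the median are descriptions of the libraries.

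**Figure D5:**
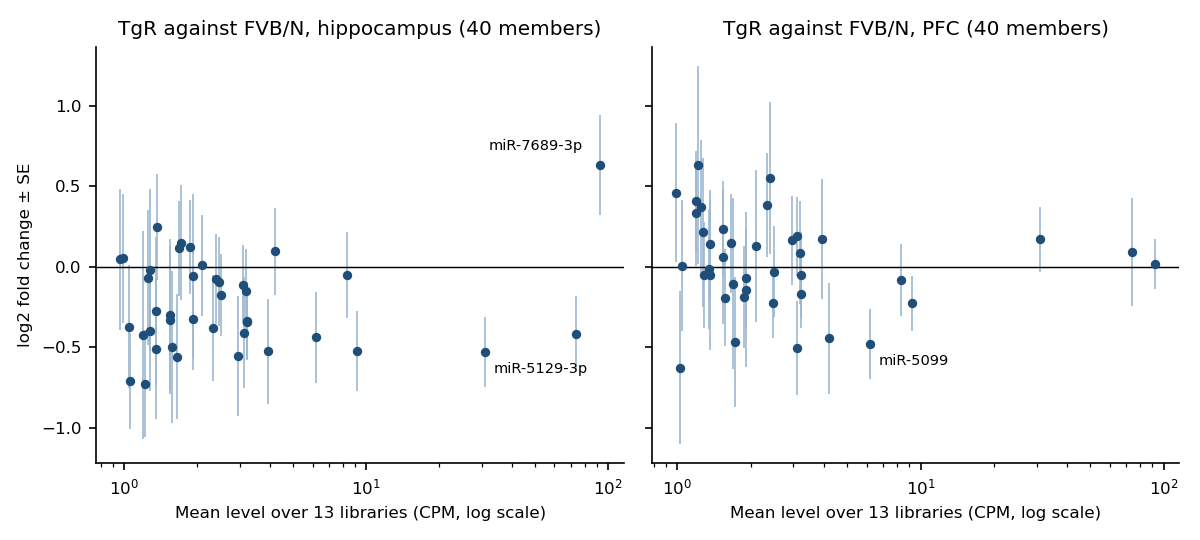
The log2 fold change of TgR against FVB/N (y axis, bars are SE) for the 40 members tested in the hippocampus (left) and the 40 tested in the PFC (right), against the mean level in CPM (x axis, log scale). In the hippocampus 31 points lie below 0 and miR-7689-3p lies highest, and in the PFC 19 lie below 0.

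In the PFC, 0 of 40 tested members passed in edgeR and 0.159% of all 628 tested miRNAs did. No member had an unadjusted p under 0.05, where 3.18% of all miRNAs had, and DESeq2 called 0 members. Groups did not overlap for 1 member, miR-5099, compared with 4.78% of all miRNAs. This miRNA, encoded between genes on chromosome 12, was at 6.843, 7.156 and 6.601 CPM in FVB/N and at 6.425, 3.815, 5.09 and 4.34 in TgR (log2 -0.48, SE 0.22, edgeR adjusted p = 0.999). miR-5129-3p was at 0.17 (SE 0.20) in the PFC. The median over the members was 0.01, and over all tested miRNAs 0.00.

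Whether the genotype effect differed between regions was tested over all 13 libraries. None of 46 members passed in edgeR (0, against 0.464% of all 647 tested miRNAs), and 2 had an unadjusted p under 0.05, against 8.5%. DESeq2 called 0 members but gave no adjusted p for 40 of them. One of the 2 was miR-7055-3p from the VGLUT1 gene Slc17a7. It had 10, 3 and 11 counts in FVB/N hippocampi and 4, 4 and 3 in TgR hippocampi. In the PFC it had 6, 4 and 10 counts in FVB/N and 9, 3, 11 and 9 in TgR. The hippocampal genotypes overlapped at 3 to 4 counts, and the hippocampal minus the PFC effect was -1.65 (SE 0.74, edgeR adjusted p = 0.565). The other was miR-5129-3p, at -0.68 (SE 0.31, adjusted p = 0.565). The values for miR-7689-3p were 0.62 (SE 0.38, adjusted p = 0.766).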

How the data were processed

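Small RNA of 13 mouse brain samples was sequenced by the authors, who checked the reads with FastQC 0.11.8 and aligned them to miRBase 21 with miRExpress 2.0. They deposited, per library, the count of reads for each pair of hairpin and mature miRNA, without normalization. Pairs missing from a library were given a count of 0. A mature miRNA listed at several hairpins was counted once, at the hairpin with the highest total, which applied to 6 members.

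Counts were fitted over all mature miRNAs with edgeR 4.0.16 in R 4.3.3 (TMM, filterByExpr with a minimum of 10, quasi-likelihood test, Benjamini-Hochberg adjustment over all tested miRNAs, threshold 0.05). Genotypes were compared within each region, and regions and the difference of genotype effects over all 13 libraries in 4 groups. SE was derived from the log2 fold change and its F statistic. Library totals of 5350259 to 11111883 counts and 3 to 4 mice per group limit precision, and reads carry no molecular identifiers. No 2 libraries of a group agreed within sampling noise. Alternatives were DESeq2 1.42.0, its size factors, library size only, no filter, every pair, a replicate block, all libraries in 1 fit, single genotypes and each library left out. The fits were tested on simulated data.

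Named members were the 15 most abundant, those past the threshold in any comparison (for regions up to 10 in each direction), the one with the smallest p where none passed, and the other arms of these hairpins. The members and lists were chosen with earlier results of these data known. Hairpins were placed with RefSeq (GRCm38.p6) and GENCODE M21, and sequences are from RefSeq. The build the authors used was not given in the sources used here, and miRNAs were matched by name. The host gene of 1 named member is not reported here.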

Additional observations from a re-analysis of the deposited data

Results flagged for a closer look

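Only TgR PFC, with 4 libraries, was large enough for a test of single outlying libraries, which chance flags in about 1 of 20 groups. Over 31 named members and 2 summaries, 2 minor arms stood out, each because all their TgR PFC counts lay in 1 library. miR-6994-5p was at 0.106 CPM in TgR PFC replicate 3, from 1 count, and at 0 in the other 3. miR-7240-3p was at 0.193 CPM in TgR PFC replicate 4, from 2 counts, and at 0 in the others. Both are below the 3 counts that can be told from 0.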

How the results depend on the processing

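Among members past the threshold between regions, miR-7240-5p passed under all 21 alternatives, miR-7080-3p under 19, miR-8103 under 18, miR-5129-3p under 17 and miR-5113 under 9, and miR-7080-5p under 19 of 20, and none of the 6 changed sign. The alternatives reuse the same libraries. As miR-7240-5p and miR-7080-5p passed the filter only through the hippocampus, where they are high, their pass counts add no separate support. The count of 6 members became 1 with FVB/N libraries only and 2 with TgR libraries only, fits with fewer libraries, and 4 to 7 when single libraries were left out. In FVB/N alone the member was miR-7240-5p. In TgR alone they were miR-7240-5p and miR-6540-5p, which is not among the 6. Calls over all miRNAs also fell with fewer libraries, from 124 of 647 to 22 of 615 in FVB/N and 86 of 633 in TgR. For genotype in the hippocampus, a fit with no filter called 1 member, miR-7689-3p (adjusted p = 0.0284), and every other alternative called 0. The region difference of miR-7689-3p turned to -0.16 in FVB/N libraries only and ranged from -0.052 to 0.238 when single libraries were left out. The cause was not tested. With every pair of hairpin and mature miRNA, where totals are larger by construction, the summed level was 214.7 and 221.1 CPM in FVB/N and TgR hippocampus and 206.8 and 205.7 in the PFC. Without the most abundant member it was 274.1 and 224.3, and 248.7 and 251.8. At least 3 counts in place of 10 gave 102.3 and 118.3 members detected in the hippocampus and 100.3 and 99.75 in the PFC.

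Whether the replicate numbers of the titles pair the libraries could not be settled with so few libraries per group. Correlations of same-numbered deviations ran from -0.21 to 0.46, and in 5 of 12 such pairs the library correlated best with its own number. Between regions they were 0.14, 0.07 and 0.21 in FVB/N and 0.11, 0.45 and -0.20 in TgR. With the replicate block, 5 members were called between regions in place of 6 and 0 in each genotype comparison and in the difference between regions. For FVB/N PFC a second numbering differs from the titles. The 409 members below the filter on low counts were not tested.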
